A study of Homo sapiens with 15 samples.

Results

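YAP-TEAD target genes were examined as 10 named members: CTGF, CYR61, ANKRD1, AMOTL1, AMOTL2, NT5E, AXL, AJUBA, LATS2 and TEAD1. They were taken by symbol from a table of read counts per gene, where CTGF and CYR61 are older names of CCN2 and CCN1. All 10 were found among 28518 symbols, and all 10 were among the 14971 genes with enough counts to be tested. RNA had been sequenced from HaCaT cells, a human keratinocyte line that became immortal without a transgene. CRISPR editing had changed CARD14, the scaffold that joins BCL10 and the protease MALT1 to activate NF-kB in the epidermis. There were 5 groups, with libraries a, b and c in each of them (n = 3): CARD14 knockout (KO) cells with DMSO vehicle, homozygous R820W cells with 10 µM mepazine, R820W cells with vehicle, wild-type (WT) cells with mepazine and WT cells with vehicle. Treatment lasted 24 h and began on the day after plating, and mepazine is a phenothiazine described by the labels as a MALT1 inhibitor. KO cells have no mepazine group here. The series speaks of 3 independent experiments, but the labels neither tie a letter to an experiment nor say how many edited clones stand for a genotype, so p-values measure only the spread between these libraries, which may in part be technical.

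YAP and its paralogue TAZ are transcriptional coactivators without a DNA-binding domain of their own, and they reach promoters and enhancers through the TEAD family of factors. The Hippo cascade, in which MST kinases activate the LATS kinases, phosphorylates them and keeps them in the cytoplasm, and crowding, cell tension and junctional proteins set its strength. In the epidermis YAP acts mainly in the basal layer, where it favours proliferation over differentiation. The members fall into 4 roles. CTGF, CYR61 and ANKRD1 are the usual readouts of YAP activity. NT5E and AXL are cell surface proteins. AMOTL1 and AMOTL2 are angiomotins that bind YAP, and AJUBA, LATS2 and TEAD1 belong to the cascade or to the DNA-binding end.

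TEAD factors bind the MCAT motif, which was searched as GGAATG and its reverse complement CATTCC in the 250 bases before each annotated start. RefSeq promoters (GRCh38.p14) were matched for 8 members with 11 starts, and CYR61 and TEAD1 had no entry. At least 1 motif was present in 5 of the 11 windows, against 11.9% of all 35116 windows of the same length. CTGF held 3 copies, a number reached by 0.0826% of all windows, at positions -169 to -164, -104 to -99 and -95 to -90 from the start. ANKRD1 held 2, at -220 to -215 and -128 to -123, where at least 2 were found in 0.94% of windows. Single copies stood before the second starts of AMOTL2 (-69 to -64), AXL (-212 to -207) and AJUBA (-59 to -54), on the strand opposite to the gene for AMOTL2 and AXL. NT5E, AMOTL1 and LATS2 had none in these windows. The serum response CArG motif, bound by SRF and searched on both strands, was in 0 of the 11 windows and in 1.16% of all windows. The windows of 4 members are shown, 5′ to 3′ on the strand of the gene with the MCAT motif in capitals. CTGF (chr6:131951373-131951622, minus strand) and ANKRD1 (chr10:90921088-90921337, minus strand) had the most copies and, of the 10, the largest fold changes between KO and WT. NT5E (chr6:85449833-85450082, plus strand), with no copy, had the same order of mean level as these in the genotypes with vehicle. Of the 10, NT5E had the largest change in R820W against WT with vehicle (log2 fold change -0.78). The second start of AMOTL2 (chr3:134374448-134374697, minus strand) had 1 copy, and AMOTL2 had no called difference in any comparison.
CTGF: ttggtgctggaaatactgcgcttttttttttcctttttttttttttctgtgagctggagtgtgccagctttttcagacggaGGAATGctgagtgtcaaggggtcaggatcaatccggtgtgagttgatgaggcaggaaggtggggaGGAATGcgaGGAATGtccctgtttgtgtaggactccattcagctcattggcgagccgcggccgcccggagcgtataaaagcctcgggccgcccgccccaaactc
ANKRD1: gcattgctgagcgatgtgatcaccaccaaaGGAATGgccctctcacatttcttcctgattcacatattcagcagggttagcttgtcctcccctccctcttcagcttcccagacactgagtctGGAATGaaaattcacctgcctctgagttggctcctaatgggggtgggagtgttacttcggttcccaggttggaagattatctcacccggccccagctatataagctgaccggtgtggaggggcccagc
NT5E: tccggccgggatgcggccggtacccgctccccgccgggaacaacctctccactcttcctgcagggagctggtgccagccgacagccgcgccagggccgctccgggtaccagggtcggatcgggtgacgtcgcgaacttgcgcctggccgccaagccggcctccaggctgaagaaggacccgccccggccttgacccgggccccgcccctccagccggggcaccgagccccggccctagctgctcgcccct
AMOTL2: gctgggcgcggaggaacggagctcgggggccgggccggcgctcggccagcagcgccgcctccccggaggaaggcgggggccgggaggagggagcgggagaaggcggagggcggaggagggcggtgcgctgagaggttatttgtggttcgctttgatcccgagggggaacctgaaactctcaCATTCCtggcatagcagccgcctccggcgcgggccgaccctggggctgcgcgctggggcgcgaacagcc
A motif count is a description of these letters and was not tested against the expression values.

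**Figure D1:**
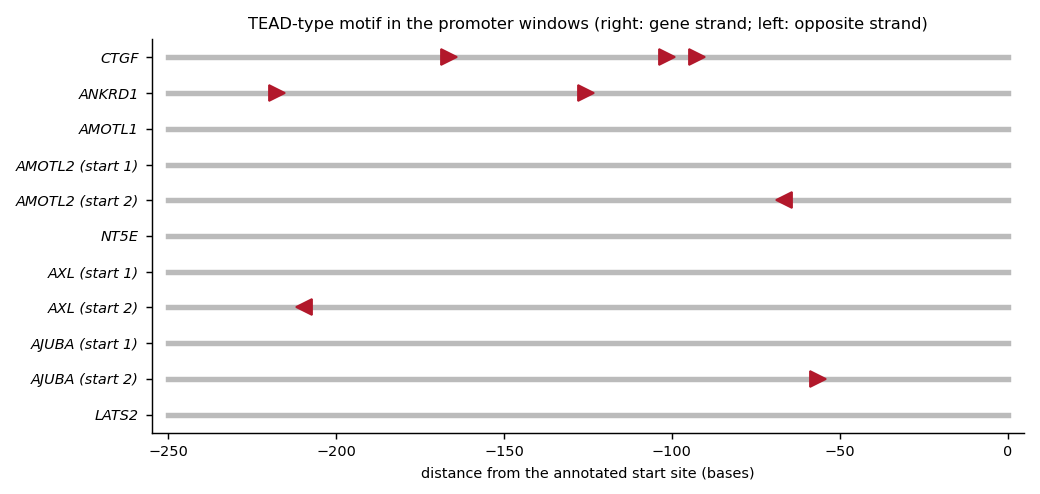
Position of the MCAT motif in the 250 bases before each annotated start of 8 members (x axis, bases from the start). Each line is 1 window and each mark 1 motif by strand. CTGF carries 3 marks and ANKRD1 carries 2, while NT5E, AMOTL1 and LATS2 carry none.

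Libraries held 20630099 to 26974363 counts, and 3 counts corresponded to 0.108 to 0.143 CPM (read counts relative to library size, scaled between libraries). CARD14 mRNA does not check the edit: it averaged 1.78 CPM in KO, 1.57 in R820W and 1.52 in WT cells with vehicle (KO against WT, log2 fold change 0.21, adjusted p = 0.886). All 8 keratinocyte markers were detected in every group. Their summed level was 4645 to 5327 CPM in KO cells, 3546 to 3813 in R820W cells and 4785 to 5034 in WT cells with vehicle, and 3563 to 3825 in R820W and 4181 to 4639 in WT cells with mepazine. KRT5 and KRT14 carried the largest parts of this sum, and a single marker could differ from it. With mepazine ITGB4 was called higher in R820W than in WT (edgeR test, log2 fold change 0.18, adjusted p = 0.0026), while the other keratinocyte markers were called lower. The 8 fibroblast markers summed to 23.4 to 33.2 CPM in R820W cells with mepazine, 5.33 to 11.2 in R820W cells with vehicle, and at most 5.20 in each of the other groups. COL1A1, DCN and LUM carried that sum, while COL1A2 and COL3A1 held at most 3 counts over any group. The 4 endothelial markers summed to 4.78 to 5.50 CPM in KO, 22.2 to 35.9 CPM in R820W cells with mepazine, 7.70 to 10.5 in R820W with vehicle, 10.1 to 13.3 in WT with mepazine and 4.42 to 6.95 in WT with vehicle, nearly all of it CDH5. The 5 melanocyte markers summed to at most 2.60 CPM. TYR and DCT were at 0 in all groups and TYRP1 held at most 6 counts over a group. MLANA averaged 0.544 to 0.998 CPM and PMEL 0.716 to 1.31 CPM over the groups. PMEL was called only in R820W against WT with mepazine (edgeR test, log2 fold change 0.89, adjusted p = 0.0246). The 5 leukocyte markers summed to at most 1.89 CPM. The part of these markers in the results below was not tested, and in bulk RNA fewer cells of a type and less RNA per cell cannot be told apart.

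With vehicle, the readouts CTGF, CYR61 and ANKRD1 and the surface proteins NT5E and AXL had the same order of mean level in the genotypes: highest in KO, then WT, then R820W. KO was called higher than WT for CTGF (2.78-fold), ANKRD1 (1.73-fold), NT5E (1.41-fold) and CYR61 (1.20-fold). R820W was called lower than WT for NT5E, ANKRD1, AMOTL1, CYR61, AXL and AJUBA, at 0.582 to 0.888 of the WT level. Against WT, KO cells had 4 of the 10 members called higher and 0 lower (edgeR quasi-likelihood test with Benjamini-Hochberg adjustment over the whole table, adjusted p under 0.05), where 0.374% of all tested genes were called, 0.287% higher and 0.0868% lower. The median log2 fold change of the 10 was 0.13, against 0.00 over all tested genes. In R820W cells 6 of 10 were called lower than in WT and 0 higher, where 19.2% of all genes were called, 10.6% higher and 8.61% lower, and the median log2 fold change was -0.28, against 0.00. Both comparisons share the WT vehicle libraries. Set directly against R820W, KO cells had 7 of 10 members called higher and 0 lower, where 26.5% of all genes were called, 13.3% higher and 13.2% lower. That comparison shares its libraries with the other two.

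**Figure D2:**
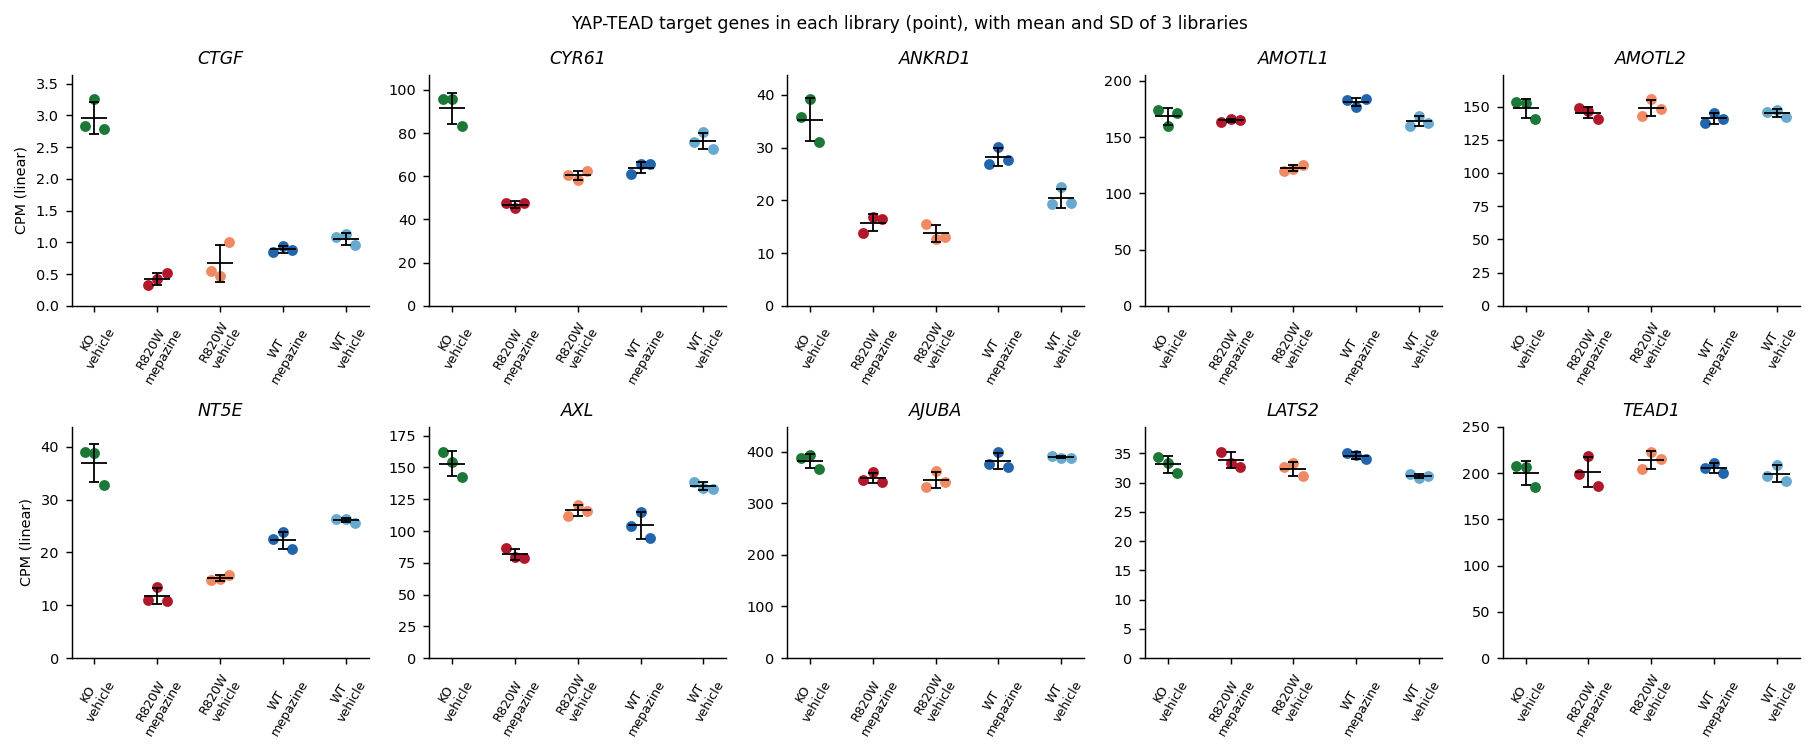
Level of each member in every library, in CPM on a linear axis from 0. Points are libraries a, b and c, and lines give the mean and SD of 3. KO libraries stand above all others for CTGF, CYR61, ANKRD1, NT5E and AXL, whereas the groups of AMOTL2 overlap. The share of all tested genes with KO above all others was not counted.

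CTGF, a secreted matricellular protein, was a low transcript in these cells. It stood at 2.83, 3.25 and 2.79 CPM in the KO libraries a, b and c, at 0.541, 0.466 and 0.999 CPM in R820W with vehicle and at 1.08, 1.13 and 0.952 CPM in WT with vehicle. The underlying counts per library were 68 to 73 in KO, 11 to 23 in R820W and 20 to 28 in WT. Every KO library lay above every other library, while R820W library c lay within the WT range. The log2 fold change was 1.48 ± 0.226 (SE) in KO against WT, a 2.78-fold higher level (adjusted p = 0.000647), and 2.14 ± 0.24 in KO against R820W (adjusted p = 9.4e-08). In R820W against WT it was -0.67 ± 0.273 and was not called (adjusted p = 0.0909); library c decided this, since without R820W_vehicle c the value was -1.06 (adjusted p = 0.0141).

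CTGF with mepazine stood at 0.325, 0.419 and 0.519 CPM in R820W cells and at 0.849, 0.945 and 0.874 CPM in WT cells. These groups did not overlap, and the R820W level was called lower (log2 fold change -1.07 ± 0.298, adjusted p = 0.00454). Against vehicle, mepazine gave -0.65 ± 0.312 in R820W (adjusted p = 0.0882) and -0.25 ± 0.26 in WT (adjusted p = 0.536), neither of them called. The R820W value was called without R820W_vehicle b (-0.85, adjusted p = 0.0407) and was -0.26 without R820W_vehicle c.

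CYR61, the other secreted CCN protein, had a steadier count. It measured 95.7, 95.6 and 83.3 CPM in KO, 60.5, 58.2 and 62.5 CPM in R820W and 75.8, 80.4 and 72.7 CPM in WT cells with vehicle. The 3 genotypes did not overlap. R820W was lower than WT by a log2 fold change of -0.34 ± 0.0542 (adjusted p = 3.49e-05), and KO was higher than R820W by 0.60 ± 0.0535 (adjusted p = 1.54e-09). The rise in KO against WT was smaller, 0.26 ± 0.0529 or 1.20-fold (adjusted p = 0.0157), and it was no longer called without any 1 of KO_vehicle a, KO_vehicle b, WT_vehicle a or WT_vehicle c. With mepazine CYR61 was 47.7, 45.1 and 47.7 CPM in R820W and 61.2, 65.5 and 65.5 CPM in WT cells. It fell with the drug in both genotypes, with a log2 fold change of -0.36 ± 0.0558 in R820W (adjusted p = 6.09e-06) and -0.25 ± 0.054 in WT (adjusted p = 0.000987). The lowest of the 5 groups was R820W with mepazine.

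ANKRD1, an ankyrin repeat protein best known from heart muscle, was the readout that did not follow CYR61 under the drug. With vehicle it measured 35.8, 39.2 and 31.0 CPM in KO, 15.5, 12.6 and 13.0 CPM in R820W and 19.3, 22.5 and 19.5 CPM in WT cells, with no overlap between genotypes. Its log2 fold change was 0.79 ± 0.092 in KO against WT (1.73-fold, adjusted p = 6.41e-05) and 1.36 ± 0.0958 in KO against R820W (adjusted p = 5.45e-10), while R820W against WT gave -0.57 ± 0.101 (adjusted p = 0.000299). With mepazine it measured 13.9, 16.9 and 16.4 CPM in R820W and 26.8, 30.1 and 27.6 CPM in WT cells. Every mepazine-treated WT library lay above every vehicle-treated one, and ANKRD1 rose by 0.47 ± 0.0937 in WT (adjusted p = 0.000944). In R820W the groups overlapped and the value of 0.19 ± 0.103 was not called (adjusted p = 0.141), except without R820W_vehicle a (0.28, adjusted p = 0.041). The difference of these responses was -0.28 ± 0.14 and was not called (adjusted p = 0.282, 95% interval -0.57 to 0.01).

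NT5E encodes the cell surface nucleotidase that makes adenosine from AMP. Among the 10 members, it was the 1 whose groups, ordered by mean, did not overlap with their neighbours at any step. How many of all tested genes separate in this way was not counted, so this is a description of NT5E only. It measured 39.1, 38.9 and 32.8 CPM in KO, 14.8, 14.9 and 15.8 CPM in R820W and 26.3, 26.3 and 25.6 CPM in WT cells with vehicle. The R820W level was 0.582 of the WT level (log2 fold change -0.78 ± 0.0804, adjusted p = 2.49e-08), while KO was 1.41-fold higher than WT (0.50 ± 0.0736, adjusted p = 0.000396) and 2.43-fold higher than R820W (1.28 ± 0.0777, adjusted p = 6.52e-13). With mepazine the levels were 11.0, 13.5 and 10.7 CPM in R820W and 22.6, 23.8 and 20.6 CPM in WT cells. NT5E fell with the drug in R820W (log2 fold change -0.38 ± 0.0875, adjusted p = 0.000857). In WT it also fell (-0.22 ± 0.0769, adjusted p = 0.0362), a call lost without any 1 of WT_mepazine a, WT_mepazine c, WT_vehicle a, WT_vehicle b or WT_vehicle c.

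AXL, a receptor tyrosine kinase of the TAM family, had the smallest adjusted p among the members that fell with mepazine, in both genotypes. It measured 162, 154 and 142 CPM in KO, 112, 121 and 116 CPM in R820W and 139, 134 and 133 CPM in WT cells with vehicle. Although the KO and WT libraries did not overlap, the difference was not called (0.18 ± 0.0583, adjusted p = 0.353, 95% interval 0.06 to 0.30). R820W was lower than WT by a log2 fold change of -0.22 ± 0.059 (adjusted p = 0.00934), a call lost without R820W_vehicle a or WT_vehicle a, and KO was higher than R820W by 0.40 ± 0.0586 (adjusted p = 1.62e-05). With mepazine AXL was 86.8, 79.8 and 78.7 CPM in R820W and 104, 115 and 94.2 CPM in WT cells. Within each genotype all treated libraries lay below all vehicle libraries. The log2 fold change was -0.50 ± 0.0602 in R820W (adjusted p = 4.12e-07) and -0.37 ± 0.0593 in WT (adjusted p = 6.64e-05).

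AMOTL1 encodes a junction-associated angiomotin that binds YAP and retains it outside the nucleus. Of the 10 members, it alone was called for the difference between the 2 mepazine responses. With vehicle it measured 174, 159.6 and 172 CPM in KO, 120.3, 122 and 126 CPM in R820W and 160.3, 169 and 163 CPM in WT cells. The R820W libraries stood apart below both other genotypes, which overlapped. R820W was lower than WT by -0.42 ± 0.041 (adjusted p = 9.38e-09), KO was higher than R820W by 0.46 ± 0.0409 (adjusted p = 1.41e-09), and KO against WT was 0.04 ± 0.0405 (adjusted p = 0.895, 95% interval -0.04 to 0.12). With mepazine AMOTL1 reached 164, 166 and 165 CPM in R820W and 183, 177 and 184 CPM in WT cells. It rose in R820W by 0.43 ± 0.0409 (adjusted p = 3.49e-09), so that the treated R820W libraries lay within the range of the vehicle-treated WT libraries. In WT it rose by 0.14 ± 0.0404 (adjusted p = 0.0103), a call lost without WT_mepazine a or WT_vehicle a. The difference of the 2 responses was called: 0.28 ± 0.0574 (adjusted p = 0.00747, 95% interval 0.17 to 0.40), and it stayed called without each of the 12 libraries in turn, at 0.26 to 0.30. Under mepazine R820W was still below WT (-0.14 ± 0.0402, adjusted p = 0.00712). Its relative AMOTL2, which also binds YAP and is itself a common YAP target, was called in 0 of the 7 comparisons by edgeR or DESeq2, also at an unadjusted p under 0.05 by edgeR. AMOTL2 group means lay between 141 and 149 CPM, and its log2 fold changes were 0.04 ± 0.0436 in KO against WT (95% interval -0.05 to 0.13) and 0.04 ± 0.0436 in R820W against WT (-0.05 to 0.13).

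The members of the cascade itself differed little. AJUBA, a LIM domain protein that restrains the LATS kinases, measured 366 to 393 CPM in KO, 332 to 363 CPM in R820W and 388 to 391 CPM in WT cells with vehicle. R820W lay below WT in every library, with a log2 fold change of -0.17 ± 0.0428 (adjusted p = 0.00462). KO was higher than R820W by 0.14 ± 0.0428 (adjusted p = 0.0127), a call lost without any 1 of KO_vehicle a, KO_vehicle b, R820W_vehicle a or R820W_vehicle c. With mepazine AJUBA was 340.3 to 360.2 CPM in R820W and 371 to 399.8 CPM in WT cells. There R820W was lower by -0.13 ± 0.0428 (adjusted p = 0.013), a call lost without R820W_mepazine c or WT_mepazine b and when only these groups were fitted (adjusted p = 0.0668). Against vehicle the drug gave 0.01 ± 0.0428 in R820W and -0.03 ± 0.0428 in WT cells, neither called.

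LATS2, the kinase that phosphorylates YAP and is a target of it, averaged 33.1 CPM in KO, 32.4 in R820W and 31.1 in WT cells with vehicle, and 33.8 in R820W and 34.6 in WT cells with mepazine. It was called in 1 comparison, higher with mepazine in WT (0.15 ± 0.0537, adjusted p = 0.0381), a call that did not hold without each of the 6 libraries in turn and under DESeq2 (adjusted p = 0.0908). TEAD1, the DNA-binding partner, averaged 199.9 CPM in KO, 214 in R820W and 199 in WT cells with vehicle, and 201 in R820W and 205 in WT cells with mepazine. It was called in 0 comparisons by the unblocked edgeR fit or by DESeq2, and its unadjusted p was at least 0.0586, but with a replicate block on the letter it was called in 3 (R820W against WT, adjusted p = 0.0415; R820W with mepazine against vehicle, 0.0389; KO against R820W, 0.0441). The value nearest to a call was in R820W against WT with vehicle, where it was 0.11 ± 0.0537 (adjusted p = 0.184) and higher in R820W for each letter, although the libraries overlapped. In R820W with mepazine against vehicle TEAD1 was -0.09 ± 0.0535 (adjusted p = 0.155), and it was called without R820W_mepazine b (-0.16, adjusted p = 0.0146).

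**Figure D3:**
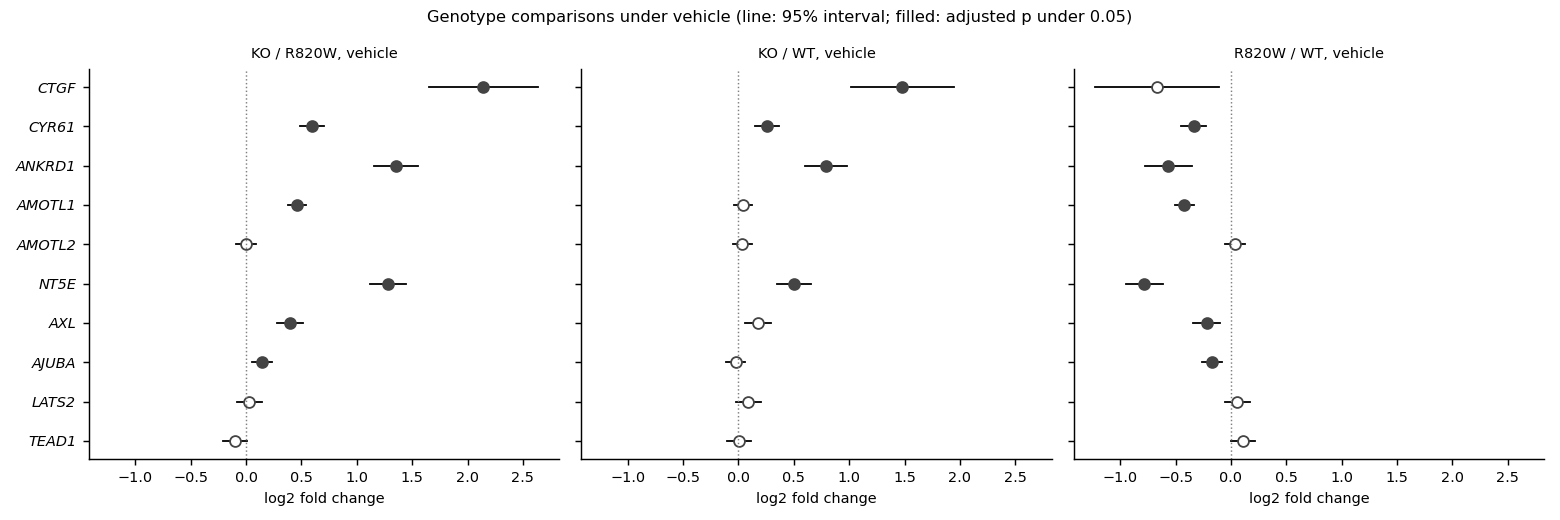
Log2 fold change of each member between genotypes with vehicle, for KO against R820W, KO against WT and R820W against WT. Lines are 95% intervals and filled points have adjusted p under 0.05. CTGF, CYR61, ANKRD1 and NT5E lie right of 0 in KO against WT and left of 0 in R820W against WT, where the CTGF point is open.

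Mepazine did not move the members in 1 direction, with a median log2 fold change of -0.07 in R820W and -0.03 in WT cells, against 0.02 over all genes in each. In R820W cells 3 members fell (CYR61, NT5E and AXL) and AMOTL1 rose, so that 4 of 10 were called where 46.8% of all tested genes were (22.1% higher and 24.8% lower), a share near the background. In WT cells the same 3 members fell, and ANKRD1, AMOTL1 and LATS2 rose, 6 of 10 where 24% of all genes were called (12.4% higher and 11.6% lower). The WT count was 3 without WT_vehicle a or WT_mepazine a. Of the 10 members, AMOTL1 alone was called for the difference between the 2 responses, where 3.85% of all genes were called (0.788% higher and 3.07% lower), and these 3 comparisons share libraries. Between genotypes under mepazine, 7 members were lower in R820W than in WT and 0 higher, where 44.9% of all genes were called, 19.4% higher and 25.4% lower. These were the 6 called lower under vehicle and CTGF. The log2 fold changes there were -0.84 ± 0.0955 for ANKRD1, -0.94 ± 0.0837 for NT5E, -0.45 ± 0.0556 for CYR61 and -0.35 ± 0.0605 for AXL. The summed keratinocyte, fibroblast and endothelial markers given above also differed between these groups, and their part was not tested.

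**Figure D4:**
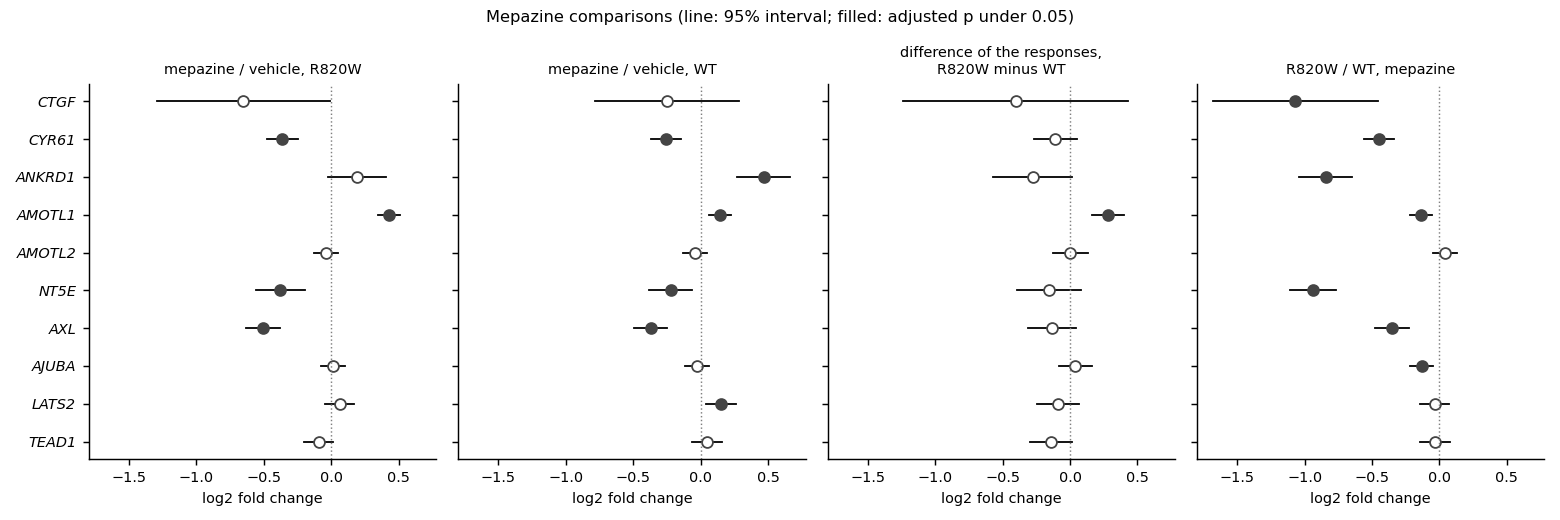
Log2 fold change of each member with mepazine against vehicle in R820W and in WT cells, the difference of the 2 responses (R820W minus WT), and R820W against WT under mepazine. Lines are 95% intervals and filled points have adjusted p under 0.05. AXL, CYR61 and NT5E lie left of 0 in both genotypes, AMOTL1 lies right of 0 in both, and in the difference its point is the filled one.

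Neither coactivator was called between genotypes with vehicle. YAP1 averaged 249 CPM in KO, 253 in R820W and 254 in WT cells with vehicle, and WWTR1, which encodes TAZ, 96.6, 95.2 and 96.8 CPM. With mepazine YAP1 averaged 266 CPM in R820W and 277 CPM in WT cells, and WWTR1 85.3 ± 3.2 and 92.1 ± 1.1 CPM. In R820W the drug lowered WWTR1 by a log2 fold change of -0.16 ± 0.0446 (adjusted p = 0.0046). Under mepazine it was lower in R820W than in WT (-0.11 ± 0.0447, adjusted p = 0.0461), a value picked after it was seen and not recomputed under the alternatives. YAP1 rose with the drug in WT (0.13 ± 0.0455, adjusted p = 0.041), a call lost without each of the 6 libraries in turn and with the DESeq2 size factors. Among the 9 coactivators, other TEAD factors and VGLL cofactors, 2 were higher and 2 lower in R820W than in WT with vehicle, where 19.2% of all genes were called, and 0 were called in KO against WT, where 0.374% of all genes were. VGLL proteins compete with or modify YAP at TEAD factors. VGLL1 averaged 32.6 ± 3 CPM in R820W and 15.7 ± 0.36 CPM in WT (log2 fold change 1.05 ± 0.0937, adjusted p = 2.4e-08), and VGLL3 26.0 ± 0.7 and 19.2 ± 1.1 CPM (0.44 ± 0.0702, adjusted p = 3.4e-05). TEAD2 was low, at 0.384 ± 0.084 CPM in R820W and 1.06 ± 0.27 CPM in WT (-1.45 ± 0.305, adjusted p = 0.00086). VGLL2 had 0 counts over the 3 R820W libraries and 29 over the WT libraries, at least 10.3-fold lower when 3 counts over the group are taken as the floor.

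Of the 14 Hippo kinases and upstream adaptors, 0 were higher and 3 lower in R820W than in WT with vehicle. Over all genes 19.2% were called there, 10.6% higher and 8.61% lower. In KO against WT 0 of the 14 were called, where 0.374% of all genes were called. The R820W count was 1 without R820W_vehicle a. SAV1, the scaffold of the MST kinases, averaged 70.3 ± 1.6 CPM in R820W and 81.4 ± 2.7 CPM in WT (-0.21 ± 0.0454, adjusted p = 0.0011). MAP4K4, a kinase that acts beside MST, averaged 171 ± 6.6 and 191 ± 6.2 CPM (-0.16 ± 0.0418, adjusted p = 0.0063), a call lost without R820W_vehicle a. The third was FRMD6 (-0.14 ± 0.0446, adjusted p = 0.028), lost without any 1 of R820W_vehicle a, R820W_vehicle c, WT_vehicle b or WT_vehicle c. With mepazine 7 of the 14 fell and 0 rose in R820W, where 46.8% of all genes were called, 22.1% higher and 24.8% lower. The count of 7 was 4 at the lowest when R820W_vehicle b or R820W_mepazine c was left out. In WT cells 1 fell, MAP4K4, where 24% of all genes were called. For the difference of the responses 0 of the 14 were called by edgeR or DESeq2, where edgeR called 3.85% of all genes. By edgeR 1 of the 14 had an unadjusted p under 0.05, and 1 was called with the block or without R820W_mepazine b. In R820W, LATS1, the paralogue of LATS2, averaged 65.6 ± 5.1 CPM with mepazine and 74.9 ± 1.8 CPM with vehicle (-0.19 ± 0.0521, adjusted p = 0.0035).

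AMOT, the founding angiomotin, ran opposite to AMOTL1 between genotypes. It averaged 42.8 ± 1.7 CPM in KO, 72.3 ± 2.6 CPM in R820W and 45.2 ± 2.3 CPM in WT cells with vehicle, and was higher in R820W than in WT (0.68 ± 0.0535, adjusted p = 1.4e-10) and lower in KO than in R820W (-0.75 ± 0.0535, adjusted p = 1.6e-11). With mepazine it reached 105 ± 3.9 CPM in R820W and 68.2 ± 4.4 CPM in WT cells, a rise of 0.54 ± 0.0502 in R820W (adjusted p = 2.4e-09) and of 0.60 ± 0.0538 in WT (adjusted p = 4.8e-09). It was the 1 called gene of the 5 tested relatives of the angiomotins and of AJUBA in R820W against WT, where 19.2% of all genes were called, and this count was 2 without WT_vehicle b. In KO against WT 0 of the 5 were called, where 0.374% of all genes were. LPP, a zyxin relative at focal adhesions, rose with the drug in both genotypes, by 0.37 ± 0.0495 in R820W (adjusted p = 7.5e-07) and by 0.32 ± 0.0503 in WT (adjusted p = 2.7e-05).

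Other genes of a published YAP signature did not share 1 direction. Of 15, 2 were higher and 4 lower in R820W than in WT with vehicle, where 10.6% of all genes were higher and 8.61% lower. The median log2 fold change of the 15 was -0.01. In KO against WT 0 of the 15 were called, where 0.374% of all genes were. IGFBP3, a secreted binder of insulin-like growth factors, averaged 591 ± 33 CPM in R820W and 286 ± 6.1 CPM in WT (1.05 ± 0.0473, adjusted p = 1.7e-15), and CCDC80, a matrix protein, 40.0 ± 8.4 and 14.1 ± 2.6 CPM (1.51 ± 0.214, adjusted p = 0.00047). ASAP1, a regulator of Arf GTPases, averaged 78.9 ± 2.9 CPM in R820W and 95.1 ± 4.7 CPM in WT (-0.27 ± 0.0488, adjusted p = 0.00014). RBMS3, an RNA-binding protein, had 2 counts over the R820W libraries and 35 over the WT libraries, a ratio of 18.6 (95% counting interval 4.79 to 160). With mepazine 4 of the 15 rose and 6 fell in R820W, where 46.8% of all genes were called. In WT 3 rose and 1 fell, near the 24% called over all genes, and the count of 4 was 2 without WT_vehicle a. IGFBP3 rose more in R820W than in WT (difference 0.50 ± 0.066, adjusted p = 0.00029), and FJX1, related to a Golgi kinase of Drosophila, fell more (-0.53 ± 0.0838, adjusted p = 0.00093).

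Partners of the surface members and a neighbouring actin program were counted next, in R820W against WT with vehicle, where 19.2% of all genes were called, and in KO against WT, where 0.374% were. GAS6, the ligand of AXL, averaged 161 ± 4.7 CPM in KO, 124 ± 1.5 CPM in R820W and 152 ± 10 CPM in WT cells with vehicle, lower in R820W than in WT (-0.30 ± 0.0525, adjusted p = 0.0001); it was 1 of 2 tested genes of the other TAM receptors and ligands, and 0 were called in KO against WT. Of the 6 tested genes of extracellular ATP and adenosine, 0 were higher and 1 lower in R820W than in WT, and 0 were called in KO against WT. This was ADORA2B, an adenosine receptor, at 41.5 ± 1.2 CPM in R820W and 49.4 ± 1.3 CPM in WT (-0.25 ± 0.0543, adjusted p = 0.0011). Of 10 tested targets of SRF and its actin-sensing MRTF cofactors, 1 was higher and 2 lower in R820W than in WT, and 5 were called with the block or with only these groups fitted. MYL9, a myosin light chain, averaged 4.13 ± 0.52 and 1.33 ± 0.4 CPM (1.61 ± 0.193, adjusted p = 3.9e-07), and FHL2, a LIM domain protein, 56.7 ± 0.75 and 65.9 ± 1.9 CPM (-0.21 ± 0.0516, adjusted p = 0.0033). In KO against WT 1 of the 10 was called, tropomyosin TPM1 (0.24 ± 0.0512, adjusted p = 0.023), a call lost without any 1 of KO_vehicle a, KO_vehicle b, WT_vehicle a or WT_vehicle c. The 1 tested CCN relative, NOV, was not called with vehicle. With mepazine it averaged 0.968 ± 0.2 CPM in R820W and 1.49 ± 0.11 CPM in WT and was called lower in R820W (-0.61 ± 0.218, adjusted p = 0.024), a call lost under DESeq2, without a filter, with only these groups fitted, and without WT_mepazine a, WT_mepazine c or R820W_mepazine b. In the same comparison 19.4% of all genes were called higher and 25.4% lower, and the other lists gave 2 higher and 5 lower of the signature genes, 0 and 7 of the Hippo genes, 4 and 4 of the coactivators and cofactors, 2 and 1 of the angiomotin and AJUBA relatives, 0 and 0 of the TAM genes, 0 and 2 of the ATP and adenosine genes and 2 and 2 of the SRF targets. The TAM count of 0, also 0 under DESeq2 and 1 at an unadjusted p under 0.05, was 1 or 2 without any 1 of R820W_mepazine a, b or c or WT_mepazine a or c, 1 with the block and 2 without a filter. In R820W against WT with vehicle the median log2 fold change of these lists lay between -0.12 (ATP and adenosine) and 0.03 (angiomotin and AJUBA relatives) for lists of more than 1 tested gene, against 0.00 over all genes. For the lists with 0 genes called in KO against WT by edgeR, DESeq2 also called 0. At an unadjusted p under 0.05 that comparison held 2 of the 15 signature genes, 2 of the 14 Hippo genes, 1 of the 9 coactivators and cofactors, 1 of the 5 angiomotin and AJUBA relatives and 0 of the TAM, ATP and adenosine, and CCN genes.

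**Figure D5:**
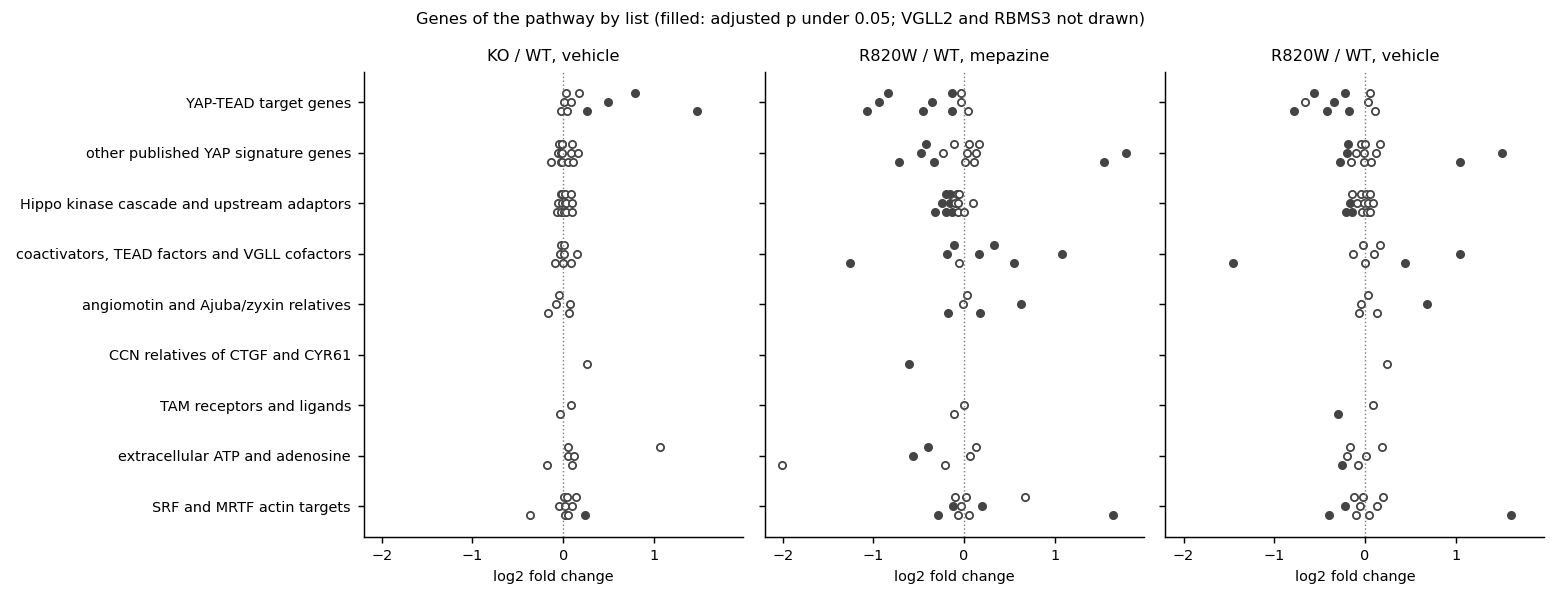
Log2 fold change of each tested gene of the related lists in KO against WT with vehicle, R820W against WT with mepazine and R820W against WT with vehicle. Filled points have adjusted p under 0.05, and VGLL2 and RBMS3 are not drawn because of 0 or 2 counts in R820W with vehicle. In KO against WT the filled points outside the members are limited to TPM1.

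Genes most like each readout were sought by the root mean square difference of log2 group means, centred per gene, over the 5 groups and 13053 genes with a mean of at least 1 CPM. For CYR61 they were SLC45A3 (0.0342), PLEK2 (0.0387) and HIST1H2AM (0.0458). PLEK2, a pleckstrin family protein, averaged 45.1 ± 0.53 CPM in KO, 31.6 ± 2.2 CPM in R820W and 39.0 ± 1.1 CPM in WT cells with vehicle, and 25.0 ± 1.6 CPM in R820W and 32.4 ± 0.21 CPM in WT cells with mepazine. For ANKRD1 they were SLFN13 (0.108), FAIM3 (0.133) and LCP1 (0.146), and for CTGF MARCH4 (0.325), GRB10 (0.336) and RASIP1 (0.342). The distances for CTGF were the widest of the 3 readouts. The measure is not scaled, so it also grows with the size of a gene's changes and with counting noise. CTGF had 9 to 73 counts per library, and MARCH4 had the same order of group means. A wider distance therefore does not show that the nearest genes follow CTGF less closely.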

How the data were processed

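Total RNA from 15 HaCaT libraries was sequenced after preparation with a strand-keeping NEBNext Ultra II Directional kit, per the labels' protocols. The table the authors deposited holds raw, unnormalised read counts by gene symbol, 1 column per library. FastQC, MACS2, DESeq2 and the build hg19 appear in the submitters' processing notes, without roles. Not given in the sources used here are the aligner, counter, annotation and strand setting. Exons of 5 members overlap another gene in GENCODE 29, 3 of them (CTGF, AMOTL1 and AXL) on the opposite strand and 2 (AMOTL2 and AJUBA) on the same strand, so their reads may be shared between symbols.

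From these counts, genes were filtered with filterByExpr (minimum count 10), scaled by TMM and fitted in 1 robust quasi-likelihood model of edgeR 4.0.16 (limma 3.58.1, R 4.3.3) with group as the only term over all 15 libraries. Tests were two-sided, 7 contrasts were made, and calls used a Benjamini-Hochberg adjusted p, over all 14971 genes, under 0.05. The SE is the log2 fold change divided by the square root of F. CPM use TMM-scaled sizes of the genes tested, and are not divided by gene length, so levels of different genes are not compared. Floors and counting intervals cover counting error only. The test was also run on simulated counts, drawn independently for each library and without an effect of the letter. That check does not cover deviations shared between libraries.

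Members, lists and tests were chosen with earlier results of these data known. Named were all members, CARD14, up to 4 called genes per list and comparison with the smallest adjusted p, and the 3 genes most like CTGF, CYR61 and ANKRD1, not all of them printed. Counts of each replicate pair differed beyond sampling noise (chi-square per gene 3.31 to 14.8), and all libraries were kept. The pairs of R820W with mepazine gave 9.92, 14.8 and 6.90, and the largest value in another group was 7.81, in WT with vehicle. Alternatives were a block on the letter, DESeq2 1.42.0, its size factors in edgeR, no filter, a minimum of 1 CPM in 3 libraries, leaving out each library, and a fit restricted to the groups compared. Of the listed genes WTIP, WISP1, WISP2, WISP3, MERTK, PROS1, ADORA1, ACTG2 and CNN1 were too low to test.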

Additional observations from a re-analysis of the deposited data

Results flagged for a closer look

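The mepazine response of AMOTL1 differed between genotypes by a test of the difference itself: 0.285 on the log2 scale, R820W minus WT (edgeR interaction contrast, adjusted p = 0.00747). AMOTL1 averaged 165 CPM with mepazine and 123 CPM with vehicle in R820W cells, and 181 CPM with mepazine and 164 CPM with vehicle in WT cells (n = 3 each). Groups of 3 libraries are too small for a search for single outlying samples.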

How the results depend on the processing

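No alternative changed the direction of a called member. Signs turned for uncalled values near 0: AMOTL2 in KO against R820W was 0.0119 under DESeq2, 0.0120 with its size factors and 0.0024 without a filter (main -0.0016); without a filter AJUBA with mepazine in R820W was -0.0017 (main 0.0132) and AMOTL2 in the difference of the responses -0.0063 (main 0.0036). With each library left out in turn, the range was -0.0476 to 0.0040 for AJUBA in KO against WT, -0.0271 to 0.0475 for AJUBA with mepazine in R820W, -0.0233 to 0.0329 for AMOTL2 in the difference, -0.0348 to 0.0390 for AMOTL2 in KO against R820W, -0.0232 to 0.0585 for TEAD1 in KO against WT and -0.0959 to 0.0191 for TEAD1 in R820W against WT with mepazine. The labels do not tie a letter to an experiment, and the main fit did not pair libraries by letter. Of 30 same-letter pairs, 16 deviated together at r over 0.1 (range -0.23 to 0.33). The range was -0.23 to 0.23 for letter a, 0.07 to 0.33 for b and -0.04 to 0.28 for c. Pairs of different letters ranged from -0.42 to 0.30, and a smaller share of them than of the same-letter pairs was over 0.1. The main fit does not model a deviation shared by a letter. With a replicate block on the letter, genes called in KO against WT numbered 103 (main 56) and in the difference of responses 1401 (main 577), and TEAD1 was called in 3 comparisons as given above. Without a filter the difference gave 894 genes. Leaving out 1 library gave 22 (without KO_vehicle a) to 51 genes in KO against WT, with counts moved by over 1.5 times also without WT_vehicle b or WT_vehicle c, 137 (without R820W_vehicle b) to 1362 (without R820W_mepazine b) in the difference, where all but WT_mepazine c and R820W_vehicle a moved it by over 1.5 times, and 3 to 5 members with mepazine in WT. LATS2 in WT with mepazine was not called with DESeq2 size factors (adjusted p = 0.0528) or without a filter (0.0921). The causes were not tested. In R820W against WT with vehicle, the block gave 2 called angiomotin and AJUBA relatives (main 1), 2 ATP and adenosine genes (main 1) and 5 SRF targets (main 3), and a fit of only these groups gave 2 relatives and 5 SRF targets. With mepazine in WT the Hippo count was 3 with the block and 2 with only the groups fitted (main 1). Size factors in place of TMM shifted the scale of each library by at most 0.0112 (log2) in either direction, so comparisons could move by more. Of the 10 members CTGF had the lowest counts, 9 to 73 per library.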
